A study of Danio rerio with 8 samples.

Results

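The activin, follistatin and TGF-beta genes described here are 9 rows, matched by gene symbol, of a table of 32433 genes. The values come from cells sorted from zebrafish embryo heads by a reporter of the pineal anlage. Markers of other cell types were detected in this pool too. The 9 genes are the TGF-beta ligands tgfb1a, tgfb2 and tgfb3, the activin subunit gene inhbaa, the receptor tgfbr2, the latency protein ltbp3, the follistatins fsta and fstb, and CD109. They were chosen by name with the knockdown and wild-type values of this same comparison known, so all their differences are given as descriptions. All 9 symbols were found, in 1 row each, and all 9 are among the 18954 genes that the authors tested.

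Libraries came from cells sorted for Kaede from embryo heads at 24 to 26 hours post-fertilization. Every group carries the transgene Tg(flhBAC:kaede)vu376, in which regulatory sequence of flh, a homeobox gene of the pineal anlage, drives the photoconvertible protein Kaede. The knockdown group holds 4 libraries from embryos that received a tbx2b splice morpholino, 2 libraries at a dose of 5 ng and 2 at 6 ng, and the wild-type group holds 4 libraries from non-injected embryos. Per the labels, the libraries are paired technical replicates, so each group rests on 2 RNA samples. Within the knockdown, dose and RNA sample were varied together and cannot be told apart, and between the groups neither can injection and the loss of Tbx2b. The deposited values are 1 FPKM (in general, a fragment count scaled by transcript length and library total) per gene and group. The spread between libraries and the depth behind each value are therefore unknown. A gene is called, here, where the authors' own test flagged it at a q value under 0.05.

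TGF-beta and activin are secreted dimers of one growth factor family. They bring type II and type I receptor kinases together, and these phosphorylate Smad2 and Smad3, which act in the nucleus with Smad4. Much of the control lies outside the cell: TGF-beta is stored in a latent form with latent binding proteins, follistatin binds activin and keeps it from its receptors, and CD109, a glycolipid-anchored surface protein, binds TGF-beta and dampens its signalling in human cells.

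The group values of fsta and CD109 were called higher in knockdown cells, while none of the ligands, the receptor, the latency protein or fstb was called. Of the 9 genes, 2 were called higher, none was called lower and 7 were not called, against 0.106% of all tested genes called higher and 0.332% called lower. These counts were in view when the genes were chosen and nothing is read from them. Among the uncalled genes, tgfbr2 and ltbp3 had higher group values in the knockdown, and tgfb1a, tgfb2, tgfb3, inhbaa and fstb had lower ones. None of the 7 had an unadjusted p value under 0.05 in the authors' table.

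The targeted gene tbx2b stood at 18.3 FPKM in knockdown and 17.4 FPKM in wild-type cells. Since a splice morpholino can leave misspliced transcripts that count towards the gene, this value is no check of the knockdown. Over all tested genes, 0.332% were called lower and 0.106% higher. Of those above 0 in both groups, 54.1% had a log2 fold change below 0. Of 7 matched pineal markers all were detected in both groups, and 4 were called lower in the knockdown (gngt1, saga, sagb and otx5) and none higher. All 7 lay below 0, with a median log2 fold change of -1.13. Their summed level was 151 FPKM in knockdown and 292 FPKM in wild-type cells, of which flh, not called, made up 129 FPKM in knockdown and 238 FPKM in wild-type cells. The part of this difference in the values of the 9 genes was not tested. In sorted pools such as these, fewer cells of a type and less RNA per cell cannot be told apart.

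Levels spanned a wide range in both groups. In knockdown cells they ran from 0.516 FPKM for fstb to 27.0 FPKM for tgfb3, with a median of 6.44 FPKM. In wild-type cells they ran from 0.201 FPKM for CD109 to 29.7 FPKM for tgfb3, with a median of 6.68 FPKM. The order of the genes differed for the 2 called ones above all: fsta was the second most abundant of the 9 in the knockdown and the fifth in wild-type cells, and CD109 was the sixth in the knockdown and the last in wild-type cells. Neighbours in the order often lay close. In the knockdown tgfb2 was 1.14 times tgfb1a and tgfb1a 1.09 times CD109, and in wild-type cells tgfb1a was 1.11 times tgfbr2 and tgfbr2 1.05 times fsta. Whether such neighbours differ beyond the spread between libraries is unknown.

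**Figure D1:**
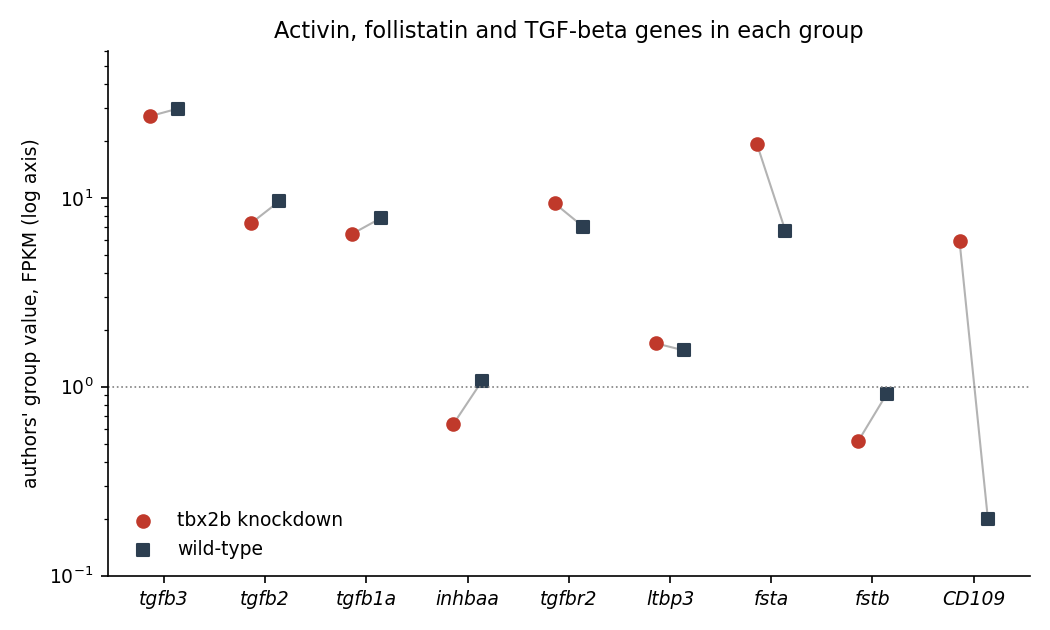
FPKM of each of the 9 genes on a log axis, 1 authors' value per group, with the tbx2b knockdown as circles and the wild-type as squares; the dotted line marks 1 FPKM. The lines of fsta (19.2 and 6.68 FPKM) and CD109 (5.92 and 0.201 FPKM) are the steepest, and those of tgfb3 and ltbp3 are nearly flat.

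Among the ligands, tgfb3 was the most abundant. Tgfb3 (ENSDARG00000019367, Zv9 chromosome 17, 52587614 to 52620507) stood at 27.0 FPKM in knockdown and 29.7 FPKM in wild-type cells, a log2 fold change of -0.14 (q of 0.999 in the authors' table). Tgfb2 (ENSDARG00000027087, chromosome 16, 3344350 to 3411485) stood at 7.32 FPKM in knockdown and 9.59 FPKM in wild-type cells. Tgfb1a (ENSDARG00000041502, chromosome 15, 2771165 to 2795128) stood at 6.44 FPKM in knockdown and 7.79 FPKM in wild-type cells. All 3 ligands were thus slightly lower in the knockdown, by log2 values of 0.14 to 0.39 in size, with unadjusted p values of 0.169 to 0.623 in the authors' table. The paralog tgfb1b was the exception in direction, at 2.33 FPKM in knockdown and 1.28 FPKM in wild-type cells (p of 0.0496 and q of 0.899 in the authors' table). Summed over these 4 TGF-beta genes the level was 43.1 FPKM in knockdown and 48.3 FPKM in wild-type cells. Tgfb3 made up 62.7% of that sum in the knockdown and 61.4% in wild-type cells, and tgfb1b made up 5.40% in the knockdown and 2.65% in wild-type cells.

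Activin is a dimer of beta subunits, and inhbaa encodes a beta A subunit. Inhbaa (ENSDARG00000012671, chromosome 24, 3025822 to 3038143) stood at 0.635 FPKM in knockdown and 1.07 FPKM in wild-type cells, with a p of 0.066 and a q of 0.977 in the authors' table. The beta B gene inhbb was the main activin subunit in these cells, at 6.02 FPKM in knockdown and 11.0 FPKM in wild-type cells. It was not called (p of 0.0013 and q of 0.162 in the authors' table). A further beta A gene, inhbab, stood at 0.141 FPKM in knockdown and 0.316 FPKM in wild-type cells and was not tested. All 3 beta subunit genes had lower values in the knockdown, none of them called, and their sum was 6.80 FPKM in knockdown and 12.4 FPKM in wild-type cells. Inhbb accounted for 88.6% of the sum in the knockdown and 88.8% in wild-type cells. Inha, the inhibin alpha subunit, was listed at 0 in both groups.

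Fsta rose in the knockdown. Follistatin wraps around activin and, more weakly, around some BMPs. Fsta (ENSDARG00000052846, chromosome 5, 42130048 to 42135527) stood at 19.2 FPKM in knockdown and 6.68 FPKM in wild-type cells, 2.87-fold higher in the knockdown (log2 fold change of 1.52, p of 5e-05 and q of 0.0176 in the authors' deposited table). That p is the smallest in the table, shared by 54 genes, of which 12 were higher in the knockdown. Fstb (ENSDARG00000057992, chromosome 10, 9058687 to 9067308), its paralog, had the opposite sign, at 0.516 FPKM in knockdown and 0.914 FPKM in wild-type cells, and was not called (p of 0.0793 in the authors' table). Fsta carried 97.4% of the follistatin sum in the knockdown and 88.0% in wild-type cells. The follistatin sum was 19.7 FPKM in knockdown and 7.60 FPKM in wild-type cells. Set against the activin beta subunits, it was 2.89 times their sum in the knockdown and 0.614 times their sum in wild-type cells. Of this ratio only the rise of fsta was called. The follistatin-like genes, which share a follistatin domain, were not called. Fstl1a and fstl1b were more abundant than fsta: fstl1a stood at 38.0 FPKM in knockdown and 34.3 FPKM in wild-type cells, and fstl1b at 70.1 FPKM in knockdown and 63.8 FPKM in wild-type cells. Fstl3 was far lower, at 0.122 FPKM in knockdown and 0.375 FPKM in wild-type cells.

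**Figure D2:**
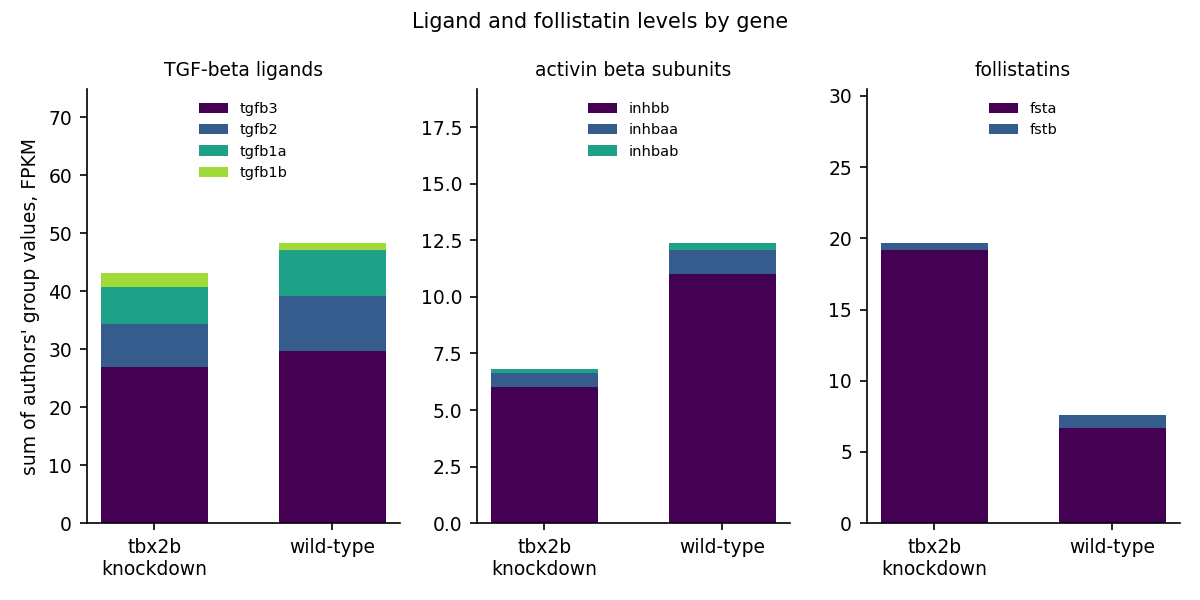
Summed FPKM of the TGF-beta ligands, the activin beta subunits and the follistatins, tbx2b knockdown left of wild-type, with each gene as a segment and each panel on its own axis from 0. The follistatin sum is larger in the knockdown (19.7 against 7.60 FPKM), the activin sum is smaller (6.80 against 12.4 FPKM), and tgfb3 fills most of the ligand bars in both groups.

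CD109 had the largest log2 fold change of all called genes above 0 in both groups that were higher in the knockdown. CD109 belongs to the thioester protein family of alpha-2-macroglobulin and complement C3. The gene (ENSDARG00000060609, chromosome 20, 49424777 to 49487262) stood at 5.92 FPKM in knockdown and 0.201 FPKM in wild-type cells, 29.5-fold higher in the knockdown (log2 fold change of 4.88, p of 5e-05 and q of 0.0176 in the authors' table). The wild-type value lies at the 0.712 percentile of tested genes and the knockdown value at the 52.2 percentile. A ratio over so low a value carries a counting error that cannot be given without depth, and on log2(FPKM + 1) the fold change was 2.53. In the knockdown CD109 reached 0.634 times the level of tgfbr2, and in wild-type cells 0.0285 times.

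The statistic behind the CD109 call was small for its fold change. The authors' test statistic was 1.42 for CD109, the lowest of the 19 genes called higher that have one, against 2.89 for fsta, the sixth highest of these. Over all tested genes, 715 had a statistic at least as large in size as that of CD109, and 639 of them were not called. For fsta the matching numbers were 191 and 165. Inhbb, which was not called, had a statistic of -1.76. Among named genes, egfl6, which encodes a secreted protein with EGF-like repeats, lay nearest to CD109 on log2 FPKM of knockdown and wild-type, 0.43 away. It stood at 6.38 FPKM in knockdown and 0.267 FPKM in wild-type cells and was not called, with a statistic of 0.905 and a p of 0.235 in the authors' table. Next, and much farther off, came blnk, a B cell adaptor, 1.82 away. It stood at 1.69 FPKM in knockdown and 0.174 FPKM in wild-type cells and was not called. The cardiac myosin light chain cmlc1 lay 1.92 away, at 6.37 FPKM in knockdown and 0.758 FPKM in wild-type cells, and was called higher. The genes nearest to fsta were a pair of 5S_rRNA rows, 0.04 and 0.19 away, and tac1, a tachykinin precursor, at 16.1 FPKM in knockdown and 7.90 FPKM in wild-type cells (p of 0.0251, not called). Likeness rests on 2 group values only.

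**Figure D3:**
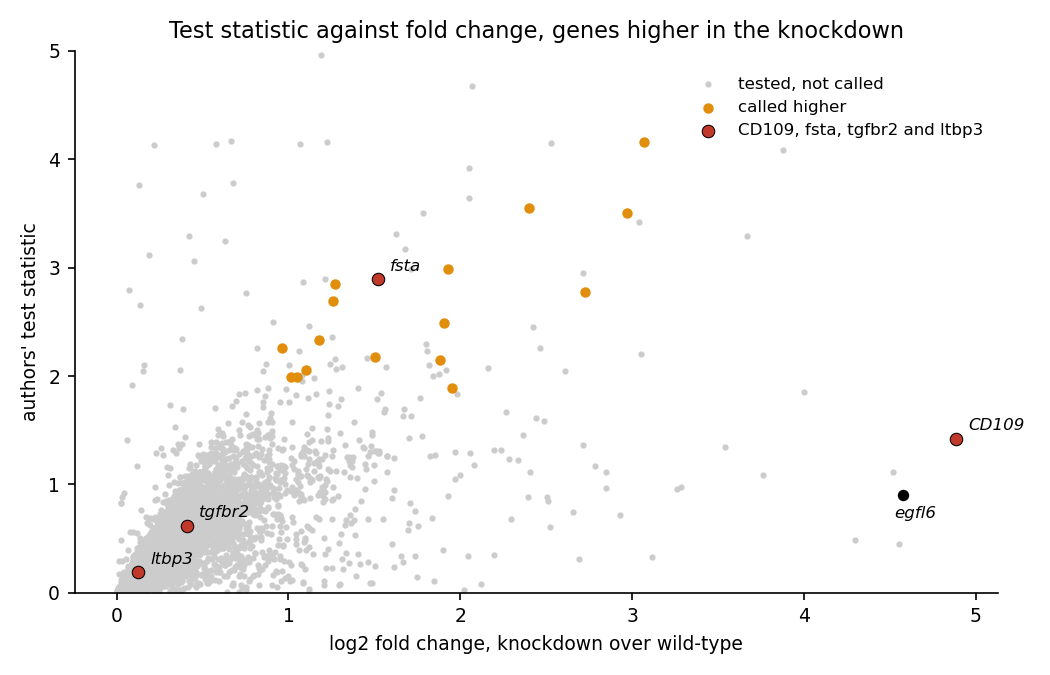
The authors' test statistic against the log2 fold change for tested genes higher in the knockdown and above 0 in both groups; grey points were not called, orange points were called, and CD109, fsta, tgfbr2 and ltbp3 are in red. CD109 lies far right and low (log2 fold change 4.88, statistic 1.42), beside the uncalled egfl6, while fsta lies among the called genes; 51 genes with a statistic above 5 are beyond the axis.

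Neither called gene shares its locus with another row, and the rows on either side were not called. On the side of lower coordinates, ndufs4 lies 3186 bases from fsta, at 58.1 FPKM in knockdown and 57.8 FPKM in wild-type cells. On the same side, naa20 lies 2193 bases from CD109, at 62.7 FPKM in knockdown and 53.6 FPKM in wild-type cells. On the other side the nearest rows were si:ch211-219f7.3, 189432 bases from fsta, and COL12A1, 274663 bases from CD109. COL12A1 stood at 8.10 FPKM in knockdown and 9.24 FPKM in wild-type cells.

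The receptor and the latency protein were present in both groups and were not called. Tgfbr2 (ENSDARG00000034541, chromosome 16, 42171680 to 42272179), the type II receptor that binds TGF-beta, stood at 9.35 FPKM in knockdown and 7.05 FPKM in wild-type cells, a log2 fold change of 0.41 (p of 0.17 and q of 0.999 in the authors' table). A separate gene named for the same receptor, TGFBR2 (2 of 2) on chromosome 19, stood at 0.652 FPKM in knockdown and 0.577 FPKM in wild-type cells. Thus tgfbr2 made up 93.5% of the pair in the knockdown and 92.4% in wild-type cells. Ltbp3 (ENSDARG00000035682, chromosome 5, 39118377 to 39184402), a latent TGF-beta binding protein that zebrafish need in the second heart field, stood at 1.70 FPKM in knockdown and 1.56 FPKM in wild-type cells, a log2 fold change of 0.12. Its relative LTBP1 stood at 0.825 FPKM in knockdown and 0.930 FPKM in wild-type cells.

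**Figure D4:**
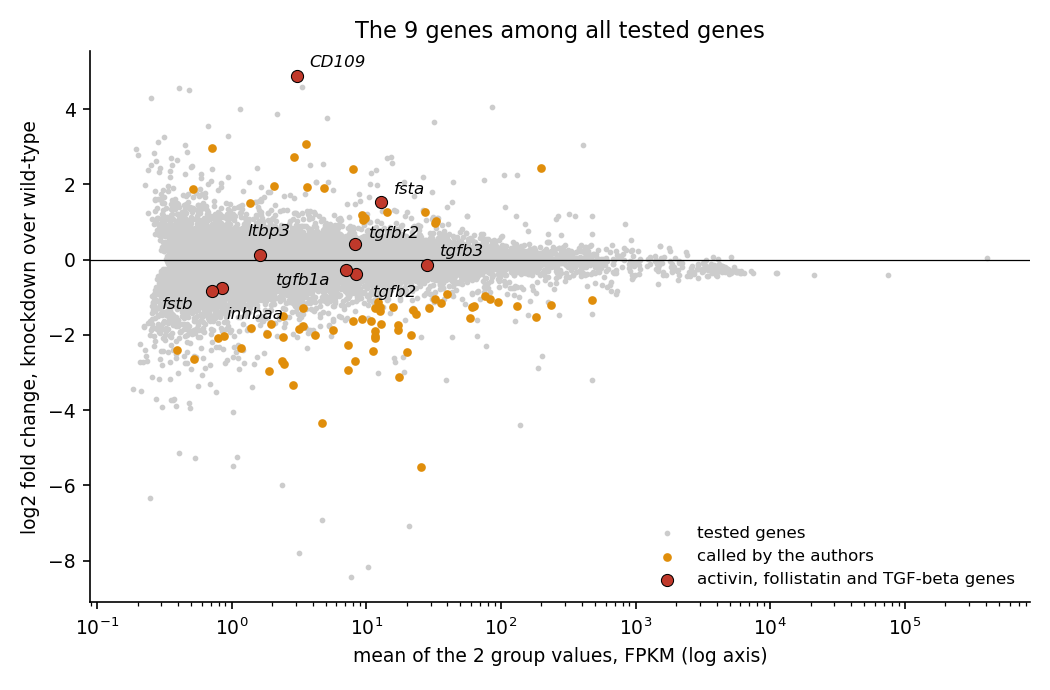
Log2 fold change, knockdown over wild-type, against the mean of both group values in FPKM (log axis) for all tested genes above 0 in both groups; called genes are orange and the 9 genes are red and named. CD109 (4.88) and fsta (1.52) lie above the other 7 genes, which lie between -0.83 and 0.41. A log2 fold change at least as large in size, either way, was held by 13 genes for CD109 and 413 genes (2.20%) for fsta.

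The rest of the pathway gave no call. Lists of further ligands, extracellular regulators, receptors, Smads and known response genes held 65 tested genes. In the authors' test none was called higher or lower, against 0.106% and 0.332% of all tested genes. With shares that small, most lists of this size would hold no call, so nothing is read from it. At an unadjusted p under 0.05, 2 were higher (3.08%) and 8 were lower (12.3%), against 1.77% and 3.76% of all tested genes. Their median log2 fold change was -0.17, and 44 of 65 lay below 0 (67.7%), against a median of -0.03 and 54.1% below 0 over the 18800 tested genes above 0 in both groups. On a TPM scale, with equal group totals, all log2 fold changes are higher by 0.106. The median of the 65 genes was then -0.067, and the median over all tested genes shifts alike. No sign among the 9 genes changed on that scale.

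Receptor levels ranged widely, from 0.0508 FPKM in knockdown and 0.123 FPKM in wild-type cells for ACVR1C, which was not tested, to the 3 most abundant rows given here. Of 13 tested receptors and co-receptors 9 lay below 0 (69.2%), with a median of -0.19. The share below 0 over all tested genes above 0 in both groups was 54.1%. The activin type I receptor acvr1b stood at 27.0 FPKM in knockdown and 30.8 FPKM in wild-type cells. The type II receptor row ACVR2B (2 of 2) stood at 27.5 FPKM in knockdown and 25.8 FPKM in wild-type cells. Tgfbr1b, a TGF-beta type I receptor, stood at 14.1 FPKM in knockdown and 17.7 FPKM in wild-type cells.

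Among Smads and their regulators 13 of 15 tested genes lay below 0 (86.7%), with a median of -0.20. The matching share over all tested genes above 0 in both groups was 54.1%. Smad2, a signal transducer shared by activin and TGF-beta, stood at 23.9 FPKM in knockdown and 28.3 FPKM in wild-type cells. The phosphatase ppm1aa, whose human counterpart dephosphorylates Smad2 and Smad3, stood at 27.4 FPKM in knockdown and 30.9 FPKM in wild-type cells. The homeobox corepressor tgif1 was the most abundant of the list, at 133 FPKM in knockdown and 130 FPKM in wild-type cells, and lay slightly above 0.

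Genes known to respond to TGF-beta, largely from mammalian cells, included abundant matrix genes. Of 13 tested members 10 lay below 0, with a median of -0.20. Over all tested genes above 0 in both groups, 54.1% lay below 0. At an unadjusted p under 0.05 in the authors' test, 1 was higher and 3 were lower (7.69% and 23.1%), against 1.77% and 3.76% of all tested genes. The list was chosen with earlier results of these data known, so these shares are descriptions only. Col1a1a stood at 83.2 FPKM in knockdown and 97.3 FPKM in wild-type cells, and col1a2 at 66.7 FPKM in knockdown and 73.1 FPKM in wild-type cells. Tgfbi, a matrix protein named for its induction by TGF-beta, stood at 56.3 FPKM in knockdown and 68.9 FPKM in wild-type cells.

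The lists of extracellular regulators and further ligands were mixed. Of 20 tested latency and extracellular genes 11 lay above 0 and 9 below, with a median of 0.05. The most abundant after fstl1b and fstl1a was the fibrillin fbn2b, at 21.9 FPKM in knockdown and 22.5 FPKM in wild-type cells. Of 4 tested further ligands 3 lay below 0, with a median of -0.18, among them gdf11 at 4.40 FPKM in knockdown and 5.26 FPKM in wild-type cells.

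**Figure D5:**
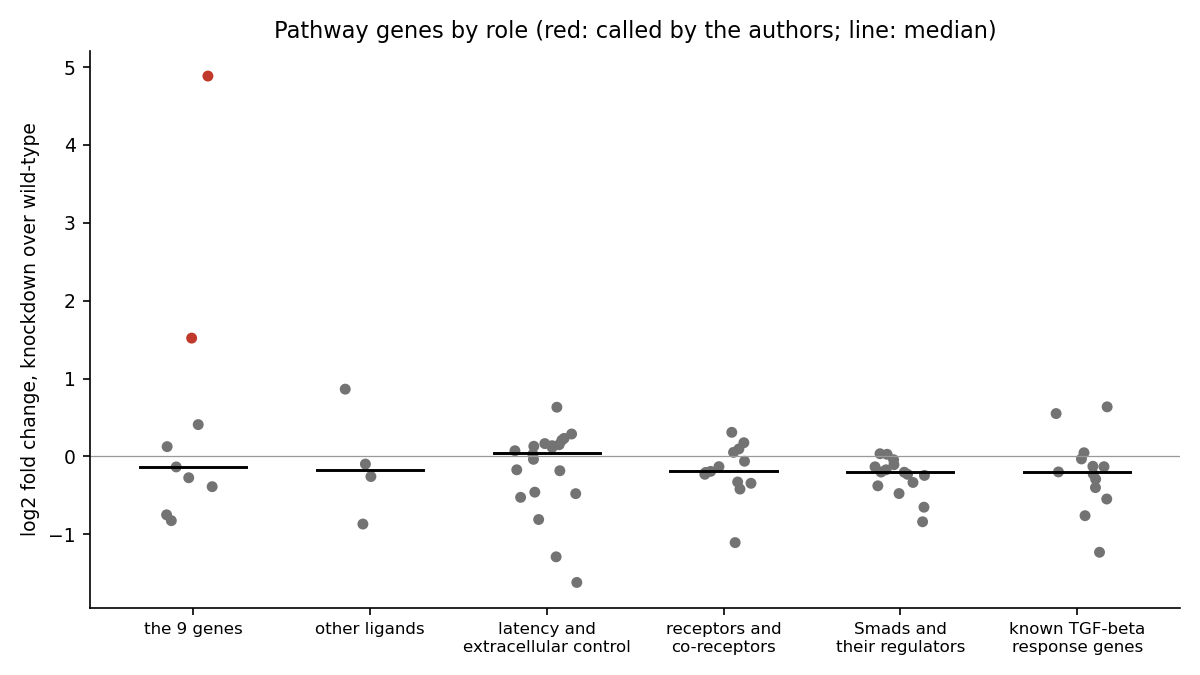
Log2 fold change, knockdown over wild-type, of the 9 genes and of 5 lists of other pathway genes, 1 point per tested gene, red where called and with a line at the median. The only red points are CD109 and fsta, and the list medians lie between -0.20 and 0.05.

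Some endothelial and heart muscle markers were called higher in the knockdown, as were fsta and CD109, and no epidermis or myeloid marker was called. Over all tested genes 0.106% were called higher, and 45.9% of those above 0 in both groups had a log2 fold change above 0. Of 12 tested endothelial markers 4 were called higher and 11 lay above 0, and their summed level was 233 FPKM in knockdown and 130 FPKM in wild-type cells. Of 5 tested heart muscle markers 4 were called higher, and the sum over all 8 rows of that list was 18.5 FPKM in knockdown and 3.55 FPKM in wild-type cells, with TNNT2 (2 of 2) at 0 in both groups. The wild-type values of that list were all low, at most 0.840 FPKM, and 3 of its 8 rows were not tested. None of 9 epidermis markers was called, at 1232 FPKM summed in knockdown and 963 FPKM in wild-type cells, and 8 of them lay above 0. None of 8 myeloid markers was called, at 57.3 FPKM summed in knockdown and 42.8 FPKM in wild-type cells, and 6 of them lay above 0. At an unadjusted p under 0.05 in the authors' test, 4 of these 8 were higher and 1 was lower. By that measure 9 of 12 endothelial, 4 of 5 heart muscle and 1 of 9 epidermis markers were higher, and none was lower. The shares over all tested genes were 1.77% higher and 3.76% lower. Markers of all these cell types were detected in both groups, so each FPKM is a level of the whole sorted pool. The part of these cells in the values of fsta and CD109 was not tested.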

How the data were processed

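Cells sorted for Kaede were profiled by RNA sequencing in 8 libraries. The submitters' processing notes name build Zv9 and the tools Cuffdiff, TopHat2, Bowtie2, Trimmomatic 0.32, FastQC 0.10.0 and CASAVA 1.8.2. How they were set, which annotation was used and how technical replicates entered the test is not given in these sources. The authors deposited 1 FPKM value per gene and group, a log2 fold change of knockdown over wild-type, a test score (the test statistic), a p value and a q value. The deposited q differed from a Benjamini-Hochberg adjustment over the 18954 tested genes by at most 5.23e-07. FPKM in general divides by transcript length and library total, and how the libraries were scaled for these values is not given. Since the lengths come from an annotation that is not given, levels of different genes can be set side by side only roughly. A difference between groups depends on the other RNAs sampled. Depth is unknown, since group values carry no counts. Coordinates are as in the file; whether starts count from 0 or 1 is not stated there.

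The authors' flag was counted, with no test of this work's own, and the counting was tested on simulated data. The genes and lists were chosen with earlier results of these data known. Of 86 listed pathway symbols 5 were not matched; symbols were matched exactly, without regard to case, by RefSeq synonym (assembly GRCz12tu, names only) or to numbered copies such as "(2 of 2)". Named genes are the 9 genes, called genes and the 3 most abundant tested genes of each list. Also named are the 3 nearest in level to each called gene, the adjacent rows and the target tbx2b. Inhbab, inha, LTBP1, fstl3, ACVR1C, TGFBR2 (2 of 2), TNNT2 (2 of 2) and the genes in the closing observations were added after their values were seen. Python 3.11.15 and pandas 2.3.3 were used.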

Additional observations from a re-analysis of the deposited data

How the results depend on the processing

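No paired analysis was possible because libraries were merged into 1 column per group before deposit, and for that reason values without single libraries were not computed either. The 2 members called higher were the same in number at a q under 0.10, with a fold minimum or with an FPKM minimum, and 0 at a q under 0.01, below the smallest q of 0.0176. The other pathway genes had no call at any q threshold, and 2 higher and 8 lower at an unadjusted p under 0.05. Of 36 recomputed fold changes of the 9 genes, 35 kept their sign and moved by less than 1.5 times as unlogged ratios. In log2 units some of these 35 changed more in proportion. On log2(FPKM + 1) inhbaa went from -0.75 to -0.34 and fstb from -0.83 to -0.34. On the TPM scale tgfb3 went from -0.14 to -0.03. CD109 moved to 2.53 on log2(FPKM + 1). The pseudocount of 1 lies well above the CD109 value in wild-type cells, 0.201 FPKM, and well below that in the knockdown, 5.92 FPKM. The median of the latency and extracellular list turned to -0.0054 with a minimum of 1 FPKM in each group. The error of the low values of fstb, inhbaa and wild-type CD109 cannot be given without depth.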

Other observations

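Some further pathway genes that were not called are given here as values, picked after these were seen. Pmepa1, which restrains TGF-beta signalling in human cells, stood at 3.37 FPKM in knockdown and 7.92 FPKM in wild-type cells (p of 0.00895 and q of 0.458 in the authors' table). The decoy receptor bambib stood at 1.45 FPKM in knockdown and 3.13 FPKM in wild-type cells (p of 0.00335 and q of 0.273), while its paralog bambia stood at 12.8 FPKM in knockdown and 12.3 FPKM in wild-type cells. The secreted protease htra1b stood at 0.369 FPKM in knockdown and 0.901 FPKM in wild-type cells, and the transducer smad3b at 3.99 FPKM in knockdown and 7.14 FPKM in wild-type cells. Ctgfa, a matrix-associated response gene, stood at 40.7 FPKM in knockdown and 59.5 FPKM in wild-type cells. None of the 3 Snail factor genes was called: snai1b stood at 3.95 FPKM in knockdown and 6.69 FPKM in wild-type cells, snai1a at 13.3 FPKM in knockdown and 8.59 FPKM in wild-type cells, and snai2 at 10.8 FPKM in knockdown and 7.41 FPKM in wild-type cells (p of 0.0494, 0.0581 and 0.043 in that order, with q of 0.874 to 0.949, in the authors' table).

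Relatives of CD109 in the thioester protein family were matched in 11 rows, of which 7 were not tested. None of the 4 tested rows was called, against 0.106% of all tested genes called higher and 0.332% called lower. With shares that small and so few rows, nothing is read from it. The complement gene c3a stood at 0.0352 FPKM in knockdown and 0.393 FPKM in wild-type cells (p of 0.00035 and q of 0.067 in the authors' table). Both c3a values lie below 1 FPKM, and their error cannot be given without depth. The CPAMD8 rows, 2 of the 4 tested rows, have different gene identifiers but the same coordinates. Whether they are separate relatives is therefore unknown. These rows stood at 4.75 and 4.08 FPKM in knockdown, against 4.09 and 2.99 FPKM in wild-type cells. C4 stood at 3.17 FPKM in knockdown and 3.78 FPKM in wild-type cells.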
